A study of Drosophila melanogaster with 12 samples.

Results

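The genes described here are those that the annotation column of the expression table placed in the KEGG pathway for protein processing in the endoplasmic reticulum (ER). The term covered 113 of the 13554 genes measured. Of these, 6 heat shock genes (Hsp68, Hsp70Ba, Hsp70Bb, Hsp70Bbb, Hsp70Bc and Hsp83) were set aside by symbol, which left 107 members. RNA was profiled on Affymetrix Drosophila Gene 1.0 ST arrays from adult male Drosophila melanogaster of 2 genotypes in 2 feeding states, with 3 arrays in each of 4 groups. Control flies were w1118. The mutant, dSTINGΔ, was homozygous for an allele from imprecise P-element excision that lacks the 5′ end of the dSTING coding region, translation start included. The gene dSTING is the fly homologue of the Stimulator of Interferon Genes. Males were 5 days old, each RNA sample came from the whole bodies of 10 males, and starved males had been moved to moist Whatman paper for 24 hr after 4 days on food while fed males stayed on food. One mutant stock was set against one control stock, so the allele and any other difference between the stocks cannot be told apart. The labels do not say whether the 3 samples of a group came from separate cultures, and the p-values below then measure only the spread between these samples.

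Secreted and membrane proteins enter the ER through the Sec61 channel, receive a preassembled sugar tree from the oligosaccharyltransferase, and fold with the help of lumenal chaperones, disulfide isomerases and the lectins calnexin and calreticulin. Proteins that fold properly leave in COPII vesicles, while those that do not are drawn back to the cytosol, tagged with ubiquitin and degraded (ER-associated degradation, ERAD). When unfolded proteins build up, the sensors PEK, Ire1 and Atf6 start the unfolded protein response, whose known targets include many of the chaperones. STING itself is a membrane protein of the ER.

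All values are log2 expression values per gene and array as normalized by the authors, and a difference is a difference of group means on that scale. Differences were tested with limma over all 13554 genes, and a gene is called where its p, adjusted by Benjamini-Hochberg, is under 0.05. The arrays were made from whole bodies, so fewer cells of a type and less RNA per cell cannot be told apart. The targeted gene itself lay between 5.24 and 6.28 on the 6 control arrays and between 1.98 and 2.57 on the 6 dSTINGΔ arrays. Array values of different genes depend on their probes, so levels of different genes are not compared here as amounts of RNA. Summed levels of tissue markers, given below, weigh genes with high array values most. Of the members, 93 had a mean above 5.85, the median of all gene means. Root mean square deviations of the members from their group means ran from 0.0934 to 0.163 on the control fed arrays and from 0.0790 to 0.120 on the other 9.

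The members as a whole were lowest in starved dSTINGΔ flies. In that group 34 of the 107 members were called lower than in fed dSTINGΔ flies and 6 were called higher, where 9.52% and 7.30% of all genes were called lower and higher. Against starved control flies, 23 members were called lower and 11 higher in starved dSTINGΔ flies, beside 10.9% and 9.01% of all genes. The members called lower were 31.8% and 21.5% of the 107 in these comparisons. Among the 6777 genes above the median level, which holds most members, the background was 12.5% lower for the first comparison and 13.6% lower for the second. The 34 became 31 to 39 with any one array left out, and 30 of the 34 were called every time. For fits with an array left out, here and below, the shares of all genes called were not counted. The 23 became 14 without dSTINGΔ starved replicate 3 and at least 16 otherwise. Calls of higher members were less stable: the 6 became 3 without dSTINGΔ fed replicate 1 or 3 or dSTINGΔ starved replicate 2, and the 11 became 3 without control starved replicate 2 or dSTINGΔ starved replicate 2, 4 without control starved replicate 1 and 5 without dSTINGΔ starved replicate 1.

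Fewer members changed in the other comparisons. In control flies starvation gave 10 members called lower and 2 higher, beside 5.55% and 5.68% of all genes. Here single arrays decided the count, which was 16 lower and 8 higher without control fed replicate 1, and 6, 4, 2 and 4 lower without control fed replicate 2, control fed replicate 3, control starved replicate 1 and control starved replicate 2. The 2 higher became 0 or 1 when any array other than control fed replicate 1 was left out. In fed flies, 3 members were called higher and 4 lower in dSTINGΔ than in control, beside 6.20% and 6.26% of all genes. The 3 became 1 when dSTINGΔ fed replicate 1 was left out, and the 4 became 2 when replicate 3 of that group was. The median difference over the 107 members was -0.17 for starvation in dSTINGΔ flies, -0.05 for starvation in control flies, -0.08 for genotype in starved flies and 0.04 for genotype in fed flies, against 0.02, 0.00, 0.00 and -0.01 over all genes.

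**Figure D1:**
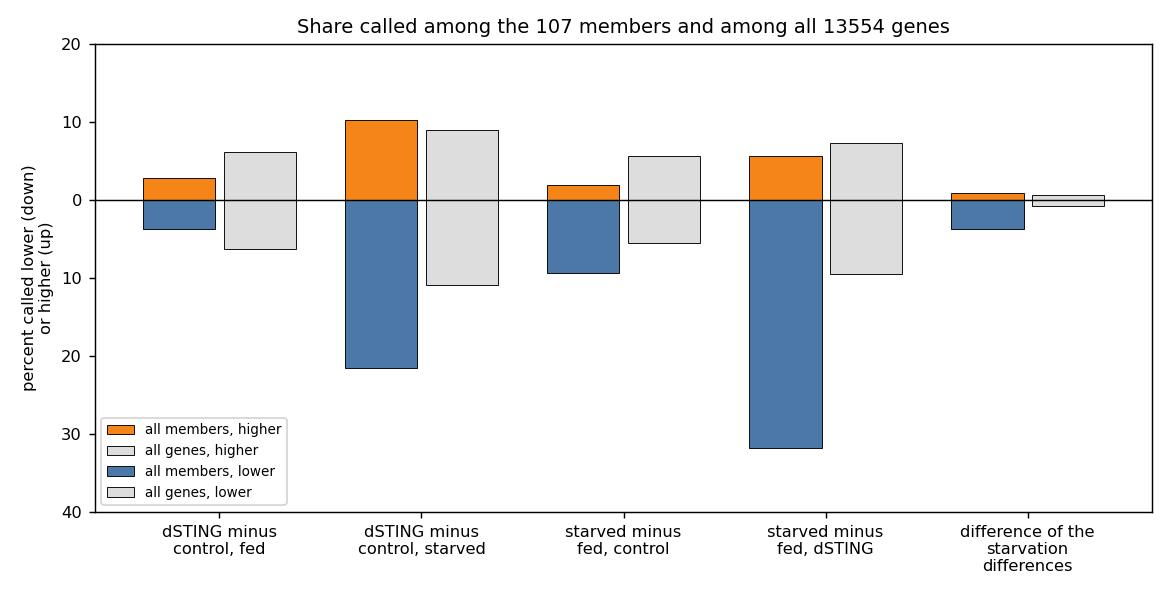
Percent of the 107 members (coloured bars) and of all 13554 genes (grey bars) called at adjusted p under 0.05 in each comparison, higher upward and lower downward. For starvation in dSTINGΔ flies 31.8% of the members were called lower beside 9.52% of all genes, and in fed flies the shares of members called lay below those of all genes in both directions.

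Counts of arrays that did not overlap gave the same order of comparisons for lower members, but not for higher members. All 3 starved dSTINGΔ arrays lay below all 3 fed dSTINGΔ arrays for 55 members and above them for 16, where 19.6% and 19.2% of all genes did so. Against starved control arrays, the starved dSTINGΔ arrays lay below for 45 members and above for 22, beside 21.9% and 20.6% of all genes. In control flies, starved arrays lay below fed arrays for 28 members and above for 10, beside 13.0% and 15.4% of all genes. In fed flies the dSTINGΔ arrays lay above the control arrays for 23 members and below for 6, beside 14.4% and 13.7% of all genes. Here the share of members lying above exceeded that of all genes, while the share of members called higher was below it.

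The members were sorted by role into 7 groups, with 4 genes (CG3061, CG6766, CG7556 and CG10973) left without a role. None of those 4 was called in any comparison. The groups did not move alike. Genes of translocation and glycosyl transfer (17 members), lumenal chaperones and folding enzymes (11), glycan trimming and lectins (13) and the COPII coat (5) held 31 of the 34 members called lower in starved dSTINGΔ flies against fed dSTINGΔ flies, and none of those called higher. The 40 genes of retrotranslocation and ubiquitination gave 4 higher (1 without dSTINGΔ fed replicate 1 or 3 or dSTINGΔ starved replicate 2, and 2 without dSTINGΔ starved replicate 1) and 2 lower, the 10 stress sensors and signalling genes 1 higher, and the 7 cytosolic chaperones 1 of each. Of all genes, 7.30% were called higher and 9.52% lower in that comparison.

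**Figure D2:**
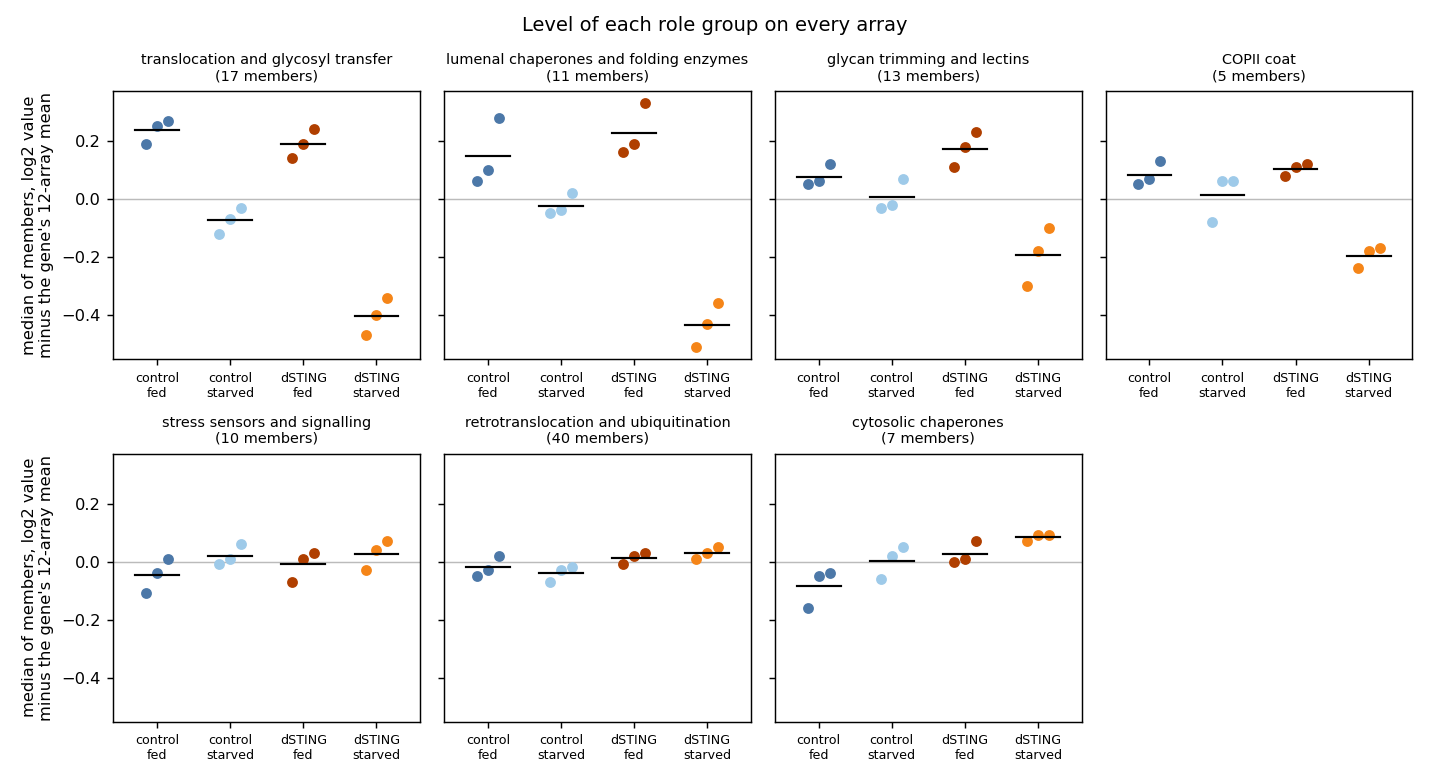
Median over the members of each role group of the log2 value minus the gene's mean over 12 arrays, with 1 point per array and a line at the mean of the 3 arrays of each group. The starved dSTINGΔ arrays lie lowest for translocation and glycosyl transfer (-0.47 to -0.34), lumenal chaperones (-0.51 to -0.36), glycan trimming and lectins (-0.30 to -0.10) and the COPII coat (-0.24 to -0.17), and not for the other 3 groups.

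Genes for entry into the ER and the first glycosylation step were called lower on starvation in both genotypes. Of the 17 members, 14 were called lower in starved than in fed dSTINGΔ flies (12 to 15 with any one array left out, median difference -0.63), and none higher. Of all genes, 9.52% were called lower and 7.30% higher there. In control flies 8 of the 17 were called lower (median -0.31), beside 5.55% of all genes. That count was 10 without control fed replicate 1, but 3 without control fed replicate 2, control fed replicate 3 or control starved replicate 2, and 1 without control starved replicate 1. Starved dSTINGΔ flies had 9 of the 17 called lower than starved control flies (8 or 9 with any array left out, median -0.28), and fed dSTINGΔ flies 1, Ost48. Shares of all genes called lower were 10.9% between starved genotypes and 6.26% between fed genotypes. The median of the group, centred on each gene's mean, was 0.19 to 0.27 on control fed arrays, 0.14 to 0.24 on dSTINGΔ fed arrays, -0.12 to -0.03 on control starved arrays and -0.47 to -0.34 on dSTINGΔ starved arrays. The 2 fed groups overlapped, and each starved group lay apart from all others.

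Sec61alpha encodes the channel-forming subunit of the translocon. Its values were 9.11, 9.15 and 9.38 in fed control flies, 9.02, 9.06 and 9.32 in fed dSTINGΔ flies, 9.07, 9.17 and 9.27 in starved control flies, and 8.44, 8.47 and 8.48 in starved dSTINGΔ flies. The first 3 groups overlapped, and every starved dSTINGΔ array lay below all of them. The gene was 1.59-fold lower in starved than fed dSTINGΔ flies (log2 difference -0.67, SE 0.10, limma adjusted p = 0.000592) and 1.63-fold lower in starved dSTINGΔ than starved control flies (-0.71, adjusted p = 0.000487), while starvation in control flies gave -0.04 (adjusted p = 0.812).

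A subunit annotated to the translocon-associated complex, l(1)G0320, had the same order of groups. It read 9.20, 9.30 and 9.51 in fed control flies, 9.05, 9.15 and 9.28 in fed dSTINGΔ flies, 9.10, 9.31 and 9.32 in starved control flies, and 8.28, 8.36 and 8.45 in starved dSTINGΔ flies. Only the last group stood clear of the others. At -0.88 it had the largest negative difference between starved dSTINGΔ and starved control flies of any member (1.84-fold, SE 0.10, limma adjusted p = 0.000106). TRAM, which helps nascent chains into the bilayer, was also lower in that comparison (-0.51, adjusted p = 0.00406) and on starvation in dSTINGΔ flies (-0.75, adjusted p = 0.000227).

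Other translocon genes were called lower on starvation in both genotypes. CG8860, a gene for a Sec61 gamma-type subunit, had 9.63, 9.99 and 10.11 in fed control flies and 9.21, 9.28 and 9.38 in starved control flies. In dSTINGΔ flies it had 9.68, 9.80 and 9.85 when fed and 9.07, 9.13 and 9.34 when starved. Fed arrays lay above starved arrays in each genotype, and the genotypes overlapped in each feeding state. The difference on starvation was -0.62 in control flies (limma adjusted p = 0.0101, and 0.0519 without control starved replicate 1) and -0.60 in dSTINGΔ flies (adjusted p = 0.00442). Its paralogue Sec61gamma gave -0.48 and -0.38 (adjusted p = 0.0205 and 0.0377), calls that were lost without control fed replicate 2 or 3 or control starved replicate 1 or 2 in control flies, and in dSTINGΔ flies without dSTINGΔ fed replicate 1 or 2, control starved replicate 2 or any dSTINGΔ starved array. How far the probes tell these paralogues apart was not checked. Tapdelta, a subunit of the translocon-associated complex, gave -0.42 in control flies (adjusted p = 0.00585) and -0.66 in dSTINGΔ flies (adjusted p = 4.98e-05), both kept with any array left out. For SsRbeta of the same complex and Sec61beta the values were -0.33 and -0.34 in control flies (adjusted p = 0.0296 and 0.0396) and -0.63 and -0.50 in dSTINGΔ flies (adjusted p = 0.000197 and 0.00242). Without control fed replicate 2 or 3 or control starved replicate 1 or 2 the control calls of both genes were lost, as was that of SsRbeta without control starved replicate 3 and that of Sec61beta without dSTINGΔ fed replicate 2 or dSTINGΔ starved replicate 3. Trp1, the Sec62 homologue, was the one gene of this role with a positive difference on starvation in dSTINGΔ flies (0.17, adjusted p = 0.192).

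The oligosaccharyltransferase was represented by 6 genes, of which 5 were called lower on starvation in dSTINGΔ flies. OstStt3 encodes a catalytic subunit. It had 8.99, 9.01 and 9.08 in fed control flies, 9.20, 9.21 and 9.25 in fed dSTINGΔ flies, 8.65, 8.70 and 8.79 in starved control flies, and 8.32, 8.40 and 8.42 in starved dSTINGΔ flies. None of the 4 groups overlapped: dSTINGΔ arrays were the highest when fed and the lowest when starved. The difference on starvation was -0.84 in dSTINGΔ flies (1.79-fold, limma adjusted p = 1.17e-05) and -0.31 in control flies (1.24-fold, adjusted p = 0.0234, lost without control fed replicate 2 or 3 or control starved replicate 1 or 2), and the higher level in fed dSTINGΔ flies (0.19) had an adjusted p of 0.113.

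OstDelta, an accessory subunit, read 8.24, 8.28 and 8.30 in fed control flies, 8.31, 8.46 and 8.47 in fed dSTINGΔ flies, 8.05, 8.06 and 8.15 in starved control flies, and 7.59, 7.62 and 7.73 in starved dSTINGΔ flies. These groups, too, did not overlap and had the same order. On starvation the gene changed by -0.77 in dSTINGΔ flies (limma adjusted p = 3.40e-05) and -0.19 in control flies (adjusted p = 0.141). CG33303, a ribophorin-type subunit, gave -0.84 (adjusted p = 4.57e-05) and -0.31 (adjusted p = 0.0481), the second called in only 2 of the 12 fits with an array left out, those without control fed replicate 1 and control starved replicate 3. Ost48 differed from the rest in being called lower in dSTINGΔ flies under both feeding states, at -0.33 when fed (adjusted p = 0.0196) and -0.59 when starved (adjusted p = 0.000318). Its values were 7.52 to 7.66 in fed control flies, 7.20 to 7.31 in fed dSTINGΔ flies, 7.11 to 7.30 in starved control flies and 6.60 to 6.68 in starved dSTINGΔ flies. The fed call was lost without control fed replicate 3 (adjusted p up to 0.0927) or dSTINGΔ fed replicate 3. On starvation Ost48 gave -0.38 in control flies (adjusted p = 0.0150, lost without control starved replicate 1) and -0.63 in dSTINGΔ flies (adjusted p = 0.000147).

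Lumenal chaperones and folding enzymes fell on starvation in dSTINGΔ flies, while the test of a difference between the genotypes in that response, given further on, was not passed by any of them. Of the 11 members, 10 were called lower in starved than in fed dSTINGΔ flies (9 or 10 with any one array left out, median -0.66) and 1, wbl, in starved control flies (median -0.12). Starved dSTINGΔ flies had 7 of the 11 called lower than starved control flies (median -0.42, 4 without dSTINGΔ starved replicate 3), and in fed flies none was called in either direction. All 11 had a negative difference in starved dSTINGΔ flies in both comparisons. Of all genes, 9.52% were called lower on starvation in dSTINGΔ flies, 5.55% in control flies and 10.9% between starved genotypes.

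Hsc70-3 is the fly BiP, the Hsp70-type chaperone of the ER lumen. Its values were 8.29, 8.32 and 8.41 in fed control flies, 8.50, 8.60 and 8.63 in fed dSTINGΔ flies, 8.21, 8.23 and 8.36 in starved control flies, and 7.86, 7.89 and 8.26 in starved dSTINGΔ flies. One starved dSTINGΔ array lay within the range of the starved controls, and fed dSTINGΔ arrays lay above all others. The gene was lower in starved than fed dSTINGΔ flies (-0.57, SE 0.11, limma adjusted p = 0.00219). The genotype differences, 0.23 when fed and -0.26 when starved, were not called (adjusted p = 0.178 and 0.107).

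Gp93, the Hsp90-type chaperone of the lumen, had 7.63, 7.63 and 7.77 in fed control flies, 7.83, 7.83 and 7.94 in fed dSTINGΔ flies, 7.41, 7.46 and 7.54 in starved control flies, and 6.80, 7.15 and 7.20 in starved dSTINGΔ flies. The 4 groups did not overlap, and 1 starved dSTINGΔ array lay well below the other two. Starvation gave -0.82 in dSTINGΔ flies (1.76-fold, limma adjusted p = 0.000160) and -0.21 in control flies (adjusted p = 0.220), and starved dSTINGΔ flies differed from starved controls by -0.42 (adjusted p = 0.0138, and 0.0576 without dSTINGΔ starved replicate 1).

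The disulfide isomerases Pdi and ERp60, which form and rearrange disulfide bonds, had tight values in starved dSTINGΔ flies. Pdi read 9.33, 9.38 and 9.73 in fed control flies, 9.45, 9.47 and 9.63 in fed dSTINGΔ flies, 9.34, 9.44 and 9.55 in starved control flies, and 8.82, 8.86 and 8.91 in starved dSTINGΔ flies. ERp60 read 10.02, 10.06 and 10.15, then 9.94, 9.94 and 10.03, then 9.74, 9.87 and 9.89, then 9.20, 9.25 and 9.32 in the same groups. For both genes every starved dSTINGΔ array lay below every other array. Against starved controls the difference was -0.58 for each (limma adjusted p = 0.00262 for Pdi and 0.000299 for ERp60), and against fed dSTINGΔ flies it was -0.65 and -0.71 (adjusted p = 0.00103 and 5.13e-05). CaBP1, another disulfide isomerase, was called on starvation in dSTINGΔ flies (-0.76, adjusted p = 0.000188) but not against starved controls (-0.28, adjusted p = 0.0672).

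**Figure D3:**
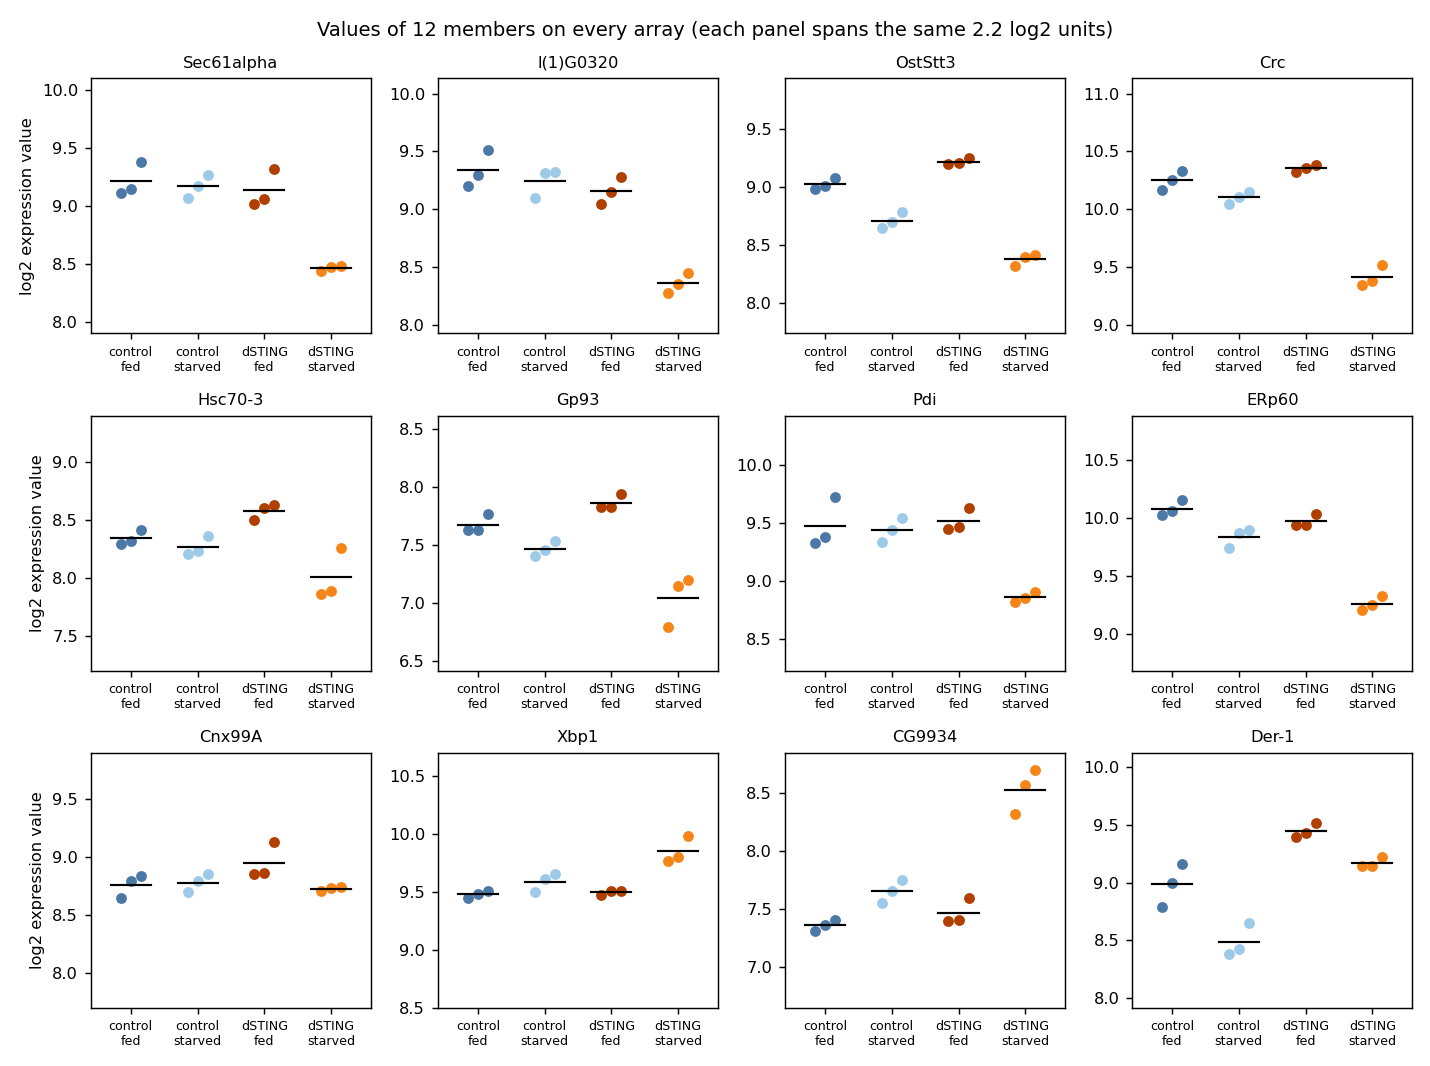
Log2 expression values of 12 members on each of the 12 arrays, with a line at each group mean, and all panels spanning an equal range. Sec61alpha, l(1)G0320, OstStt3, Crc, Gp93, Pdi and ERp60 have all 3 starved dSTINGΔ arrays below every other array. Cnx99A has its starved dSTINGΔ arrays within the range of the starved controls, and Xbp1 and CG9934 have all 3 above every other array.

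The co-chaperones behaved likewise. P58IPK, a J-domain protein of the lumen, gave -0.59 on starvation in dSTINGΔ flies (limma adjusted p = 0.00328) and -0.45 against starved controls (adjusted p = 0.0176), the latter lost without control starved replicate 1 or 2 or dSTINGΔ starved replicate 1 or 3. CG4164, a J-domain protein named shriveled in RefSeq, gave -0.66 (adjusted p = 0.0131, lost at 0.0612 without dSTINGΔ fed replicate 3) and -0.71 (adjusted p = 0.00776) in the same comparisons. CG2918, the Grp170-type chaperone, gave -0.76 (adjusted p = 0.000257) and -0.42 (adjusted p = 0.0130, and 0.0515 without dSTINGΔ starved replicate 3). CG10420, the nucleotide exchange factor Sil1, was the member of this role not called in any comparison, with -0.19 on starvation in dSTINGΔ flies (adjusted p = 0.221).

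The folding factor wbl (windbeutel), a disulfide isomerase relative known for its part in dorsoventral patterning of the egg, had the largest starvation difference of all members in both genotypes. It read 5.40, 5.72 and 6.13 in fed control flies, 5.44, 5.58 and 5.81 in fed dSTINGΔ flies, 4.48, 4.76 and 4.80 in starved control flies, and 3.99, 4.04 and 4.13 in starved dSTINGΔ flies. Fed groups overlapped, and starved dSTINGΔ arrays lay below starved control arrays. The difference was -1.08 in control flies (2.11-fold, limma adjusted p = 0.00292) and -1.55 in dSTINGΔ flies (2.94-fold, adjusted p = 3.68e-05). Starved dSTINGΔ flies differed from starved controls by -0.62 (adjusted p = 0.0172), a call lost without control starved replicate 2 or dSTINGΔ starved replicate 2 or 3.

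Of the 13 genes for glycan trimming and lectins, 5 were called lower on starvation in dSTINGΔ flies, none in control flies, and 4 in starved dSTINGΔ against starved control flies. Of all genes, 9.52%, 5.55% and 10.9% were called lower in these comparisons. The 4 became 2 without control fed replicate 2, any dSTINGΔ fed array, control starved replicate 2 or dSTINGΔ starved replicate 2 or 3. Crc, the calreticulin gene (not to be confused with crc, the fly ATF4), had 10.17, 10.25 and 10.33 in fed control flies, 10.32, 10.36 and 10.38 in fed dSTINGΔ flies, 10.05, 10.11 and 10.15 in starved control flies, and 9.35, 9.38 and 9.52 in starved dSTINGΔ flies. The starved dSTINGΔ arrays lay apart from all 9 others. Calreticulin fell 1.92-fold on starvation in dSTINGΔ flies (-0.94, SE 0.08, limma adjusted p = 8.74e-06) and gave -0.15 in control flies (adjusted p = 0.232). It was 1.61-fold lower in starved dSTINGΔ than starved control flies (-0.69, adjusted p = 8.86e-05).

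Its membrane-bound relative calnexin did not share this difference. Cnx99A had 8.65, 8.79 and 8.84 in fed control flies, 8.85, 8.86 and 9.13 in fed dSTINGΔ flies, 8.70, 8.79 and 8.85 in starved control flies, and 8.71, 8.73 and 8.74 in starved dSTINGΔ flies. Starved dSTINGΔ arrays lay within the range of starved control arrays and below the fed dSTINGΔ arrays. Starvation in dSTINGΔ flies gave -0.22 (limma adjusted p = 0.138), and starved dSTINGΔ and control flies differed by -0.05 (adjusted p = 0.758). The cargo lectin ergic53, which carries glycoproteins from the ER to the Golgi, was called lower in both comparisons, at -0.74 (adjusted p = 0.000147) and -0.56 (adjusted p = 0.00128). Ugt, the folding sensor that adds glucose back to misfolded glycoproteins, gave -0.54 on starvation in dSTINGΔ flies (adjusted p = 0.00438).

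The subunits of glucosidase II, which trims the glucose residues, differed from each other. CG6453, its beta subunit, fell on starvation in dSTINGΔ flies (-0.80, limma adjusted p = 0.00145), with -0.45 in control flies (adjusted p = 0.0569). CG14476, its alpha subunit, was called in 1 comparison, between genotypes in fed flies (0.33, adjusted p = 0.0145, and 0.0536 without dSTINGΔ fed replicate 1), where dSTINGΔ arrays read 7.28 to 7.38 and control arrays 6.92 to 7.09. The ERAD lectins Edem1 and Edem2 and the mannosidase CG31202 were not called in any comparison.

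Among the 10 stress sensors and signalling genes, differences were small and went both ways. Xbp1 encodes the transcription factor that Ire1 activates by splicing its mRNA. It read 9.45, 9.48 and 9.51 in fed control flies, 9.47, 9.51 and 9.51 in fed dSTINGΔ flies, 9.50, 9.61 and 9.65 in starved control flies, and 9.77, 9.80 and 9.98 in starved dSTINGΔ flies. The starved dSTINGΔ arrays were the highest. The rise on starvation in dSTINGΔ flies was 1.28-fold (0.35, limma adjusted p = 0.00928, at most 0.0489 with any array left out), against 0.10 in control flies (adjusted p = 0.421). Starved dSTINGΔ flies were 0.27 above starved controls (adjusted p = 0.0355), a call lost without dSTINGΔ fed replicate 1 or 3, any control starved array or dSTINGΔ starved replicate 1 or 2. The array value is the gene's total and does not tell spliced from unspliced Xbp1 mRNA.

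The sensors PEK, the ER kinase of eIF2alpha, and Atf6 were not called in any comparison. On starvation in dSTINGΔ flies PEK gave -0.09 (limma adjusted p = 0.599) and Atf6 -0.25 (adjusted p = 0.0812). Ire1, which was not among the members, was higher on starvation in dSTINGΔ flies (0.64, adjusted p = 0.000486) and in starved dSTINGΔ than starved control flies (0.31, adjusted p = 0.0417), with 0.30 on starvation in control flies (adjusted p = 0.0619). Herp, an ERAD component also outside them, gave 0.53 (adjusted p = 0.000931), 0.30 (adjusted p = 0.0275) and 0.20 (adjusted p = 0.154) in these comparisons. Other genes of the response outside the members, crc, eIF-2alpha, Gadd34 and Ero1L, were not called in either starvation comparison or in starved flies between genotypes. Over all roles, 21 further genes outside the members were read. On starvation in dSTINGΔ flies 4 of the 21 were called higher and 4 lower (down to -1.45), beside 7.30% and 9.52% of all genes. Between starved genotypes 2 were called higher and 1 lower (-1.02 at the lowest), beside 9.01% and 10.9% of all genes.

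The proteases S1P and S2P, which cut Atf6 and SREBP in the Golgi, were lower in dSTINGΔ flies whether fed or starved. S2P read 6.43, 6.46 and 6.60 in fed control flies, 5.97, 6.0 and 6.14 in fed dSTINGΔ flies, 6.40, 6.47 and 6.66 in starved control flies, and 6.16, 6.24 and 6.24 in starved dSTINGΔ flies. Control and dSTINGΔ arrays did not overlap. The difference was -0.46 when fed (1.37-fold, limma adjusted p = 0.006) and -0.30 when starved (adjusted p = 0.0359, lost without control starved replicate 1 or 2 or any dSTINGΔ starved array). S1P gave -0.28 (adjusted p = 0.0200) and -0.24 (adjusted p = 0.0301), and lost its fed call without control fed replicate 2 or any dSTINGΔ fed array and its starved call without any one of the 6 starved arrays. Gcn2, the amino acid sensing kinase of eIF2alpha, was called higher in starved dSTINGΔ than starved control flies (0.34, adjusted p = 0.0481) and lost that call without any dSTINGΔ fed or dSTINGΔ starved array or control starved replicate 1 or 2. The wolframin gene wfs1 gave 0.31 in fed flies (adjusted p = 0.0909).

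Genes of retrotranslocation and ubiquitination, the largest group with 40 members, were mostly not called. Starved dSTINGΔ flies had 7 called higher and 1 lower than starved control flies (17.5% and 2.5%), beside 9.01% and 10.9% of all genes. The 7 became 3 and 2 without control starved replicate 1 and 2, and 4 and 2 without dSTINGΔ starved replicate 1 and 2. The 1 called lower was sip3, the fly Hrd1 ubiquitin ligase (-0.56, limma adjusted p = 0.0296), a call lost without control starved replicate 1 or 2 or any dSTINGΔ starved array. CG9934, the Ube4B-type enzyme that lengthens ubiquitin chains, had 7.31, 7.36 and 7.41 in fed control flies, 7.40, 7.41 and 7.60 in fed dSTINGΔ flies, 7.55, 7.66 and 7.75 in starved control flies, and 8.32, 8.57 and 8.70 in starved dSTINGΔ flies. Its starved dSTINGΔ arrays lay above all others. The gene rose 2.08-fold on starvation in dSTINGΔ flies (1.06, SE 0.10, adjusted p = 2.46e-05), the largest rise of any member, and was 1.83-fold higher than in starved controls (0.87, adjusted p = 0.000109).

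Der-1 encodes a derlin of the retrotranslocation channel. It had 8.79, 9.0 and 9.16 in fed control flies, 9.39, 9.43 and 9.51 in fed dSTINGΔ flies, 8.38, 8.43 and 8.65 in starved control flies, and 9.14, 9.14 and 9.22 in starved dSTINGΔ flies. Within each feeding state dSTINGΔ arrays lay above control arrays, and within each genotype starved arrays lay below fed arrays. The genotype difference was 0.46 when fed (1.38-fold, limma adjusted p = 0.0120, and 0.0501 without dSTINGΔ fed replicate 1) and 0.68 when starved (1.60-fold, adjusted p = 0.000624). On starvation it gave -0.50 in control flies (adjusted p = 0.0127, lost without control fed replicate 3 or control starved replicate 1 or 2) and -0.28 in dSTINGΔ flies (adjusted p = 0.0896). Its relative Der-2 was not called in any comparison.

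The annotated ubiquitin-conjugating enzyme CG5440 was the member with the largest negative genotype difference in fed flies. It read 7.43, 7.53 and 7.88 in fed control flies, 6.85, 6.88 and 6.95 in fed dSTINGΔ flies, 7.36, 7.38 and 7.46 in starved control flies, and 7.15, 7.30 and 7.41 in starved dSTINGΔ flies. The fed genotypes stood apart, and the starved genotypes overlapped. The difference was -0.72 when fed (1.65-fold, limma adjusted p = 0.00137) and -0.12 when starved (adjusted p = 0.515). On starvation in dSTINGΔ flies it gave 0.39 (adjusted p = 0.0313, lost without any dSTINGΔ fed array or dSTINGΔ starved replicate 2 or 3).

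The other members of this role called higher in starved dSTINGΔ than starved control flies were skpF (0.51, limma adjusted p = 0.0258) and skpB (0.44, adjusted p = 0.0180), which encode Skp-type ubiquitin ligase subunits, the ubiquitin ligases CHIP (0.34, adjusted p = 0.0293) and CG8974 (0.28, adjusted p = 0.0302), and CG1317 (0.30). Each of these 5 calls was lost without control starved replicate 2 and without dSTINGΔ starved replicate 2. Those of skpF, CHIP, CG8974 and CG1317 were also lost without control starved replicate 1, those of CHIP, CG8974 and CG1317 without dSTINGΔ starved replicate 1, and that of CG1317 without dSTINGΔ starved replicate 3. CHIP and CG8974 were also called higher on starvation in dSTINGΔ flies (0.34 and 0.33, adjusted p = 0.0287 and 0.0167), both lost without dSTINGΔ fed replicate 1 or 3 or dSTINGΔ starved replicate 1 or 2, and CHIP without dSTINGΔ fed replicate 2. The core extraction machine, TER94 (the fly p97) with Npl4 and Ufd1-like, was not called in any comparison. For eff, an abundant ubiquitin-conjugating enzyme, the 5 differences tested lay between -0.08 and 0.08. The Skp genes skpE and skpD were not called either, with the largest differences -0.37 in fed flies for skpE (adjusted p = 0.108) and 0.33 on starvation in dSTINGΔ flies for skpD (adjusted p = 0.132).

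The COPII coat genes Sec13 and Sec31, whose products form the outer cage of ER exit vesicles, were called lower on starvation in dSTINGΔ flies (-0.39 and -0.38, limma adjusted p = 0.00213 and 0.0103), and none of the 5 coat genes was called between starved genotypes. Sar1, the GTPase that starts coat assembly, gave -0.28 there (adjusted p = 0.0518), and CG9175, a Sec12-type gene, -0.23 (adjusted p = 0.0690). Sec24AB, the cargo adaptor, was called higher on starvation in control flies (0.34, adjusted p = 0.0458), a call kept in only 2 fits with an array left out, those without control fed replicate 1 and control fed replicate 2.

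The small heat shock protein gene l(2)efl, one of 7 cytosolic chaperones among the members, had the largest positive genotype differences. It read 6.57, 6.64 and 6.69 in fed control flies, 7.32, 7.34 and 7.43 in fed dSTINGΔ flies, 6.90, 7.12 and 7.34 in starved control flies, and 7.85, 8.18 and 8.24 in starved dSTINGΔ flies. Starved dSTINGΔ arrays were highest and control fed arrays lowest. The difference between genotypes was 0.73 when fed (1.66-fold, limma adjusted p = 0.00206) and 0.97 when starved (1.96-fold, adjusted p = 0.000162). It rose on starvation in dSTINGΔ flies (0.73, adjusted p = 0.00109) and in control flies (0.49, adjusted p = 0.0266, lost without control fed replicate 2 or 3 or control starved replicate 1 or 3). Hsc70-2, a cytosolic Hsp70 relative, was called higher in starved dSTINGΔ than starved control flies (0.44, adjusted p = 0.0362), and lost the call without any one of the 6 starved arrays. Hsc70Cb, the Hsp110-type exchange factor, was the one cytosolic chaperone called lower, on starvation in dSTINGΔ flies (-0.40, adjusted p = 0.00520). The J-domain proteins Droj2 and CG7945 were not called in any comparison.

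Whether the genotypes differed in their response to starvation was tested directly, as the starvation difference in dSTINGΔ flies minus that in control flies. Of the 107 members, 4 were called lower (a more negative response in dSTINGΔ flies) and 1 higher, beside 0.738% and 0.590% of all genes. They were Crc (-0.79, SE 0.11, limma adjusted p = 0.00693), l(1)G0320 (-0.71, adjusted p = 0.0408), OstDelta (-0.58, adjusted p = 0.0296), OstStt3 (-0.53, adjusted p = 0.0332) and, in the other direction, CG9934 (0.77, adjusted p = 0.0297). Crc alone kept its call with any one array left out (adjusted p at most 0.0278). The 4 became 15 without control fed replicate 1, while leaving out dSTINGΔ fed replicate 2 or dSTINGΔ starved replicate 2 gave 2, and the count was 1 without control fed replicate 2, dSTINGΔ fed replicate 1 or 3, control starved replicate 1 or 2 or dSTINGΔ starved replicate 1. The 1 called higher became 4 without control fed replicate 1 and 0 without control fed replicate 2, dSTINGΔ fed replicate 1 or 3, control starved replicate 1 or 2 or dSTINGΔ starved replicate 1 or 2.

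At an unadjusted p under 0.05, 30 members had a more negative and 5 a more positive response in dSTINGΔ flies, where 10.2% and 7.56% of all genes did. By role, the 30 included 9 of 11 lumenal chaperones and folding enzymes, 9 of 17 genes of translocation and glycosyl transfer, 6 of 13 of glycan trimming and lectins, 2 of 5 of the COPII coat, 3 of 40 of retrotranslocation and ubiquitination and 1 of 7 cytosolic chaperones. All 11 lumenal chaperones had a negative value (median -0.50) and none passed the adjustment, among them Pdi (-0.61, limma adjusted p = 0.0705), Gp93 (-0.61, adjusted p = 0.0667) and ERp60 (-0.47, adjusted p = 0.0606). Without control fed replicate 1, 4 of the 11 passed, and without dSTINGΔ starved replicate 2, 1. Sec61alpha gave -0.63 (adjusted p = 0.0580) and ergic53 -0.58 (adjusted p = 0.0553). CG8860 (0.02), Sec61gamma (0.11) and wbl (-0.48, SE 0.23) did not pass at adjusted p = 0.952, 0.745 and 0.300. Behind CG9934, the members with the smallest p in the positive direction were CG5440 (0.60, adjusted p = 0.0797), CHIP (0.44, adjusted p = 0.127), skpD (0.55, adjusted p = 0.177) and Trp1 (0.29, adjusted p = 0.234).

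**Figure D4:**
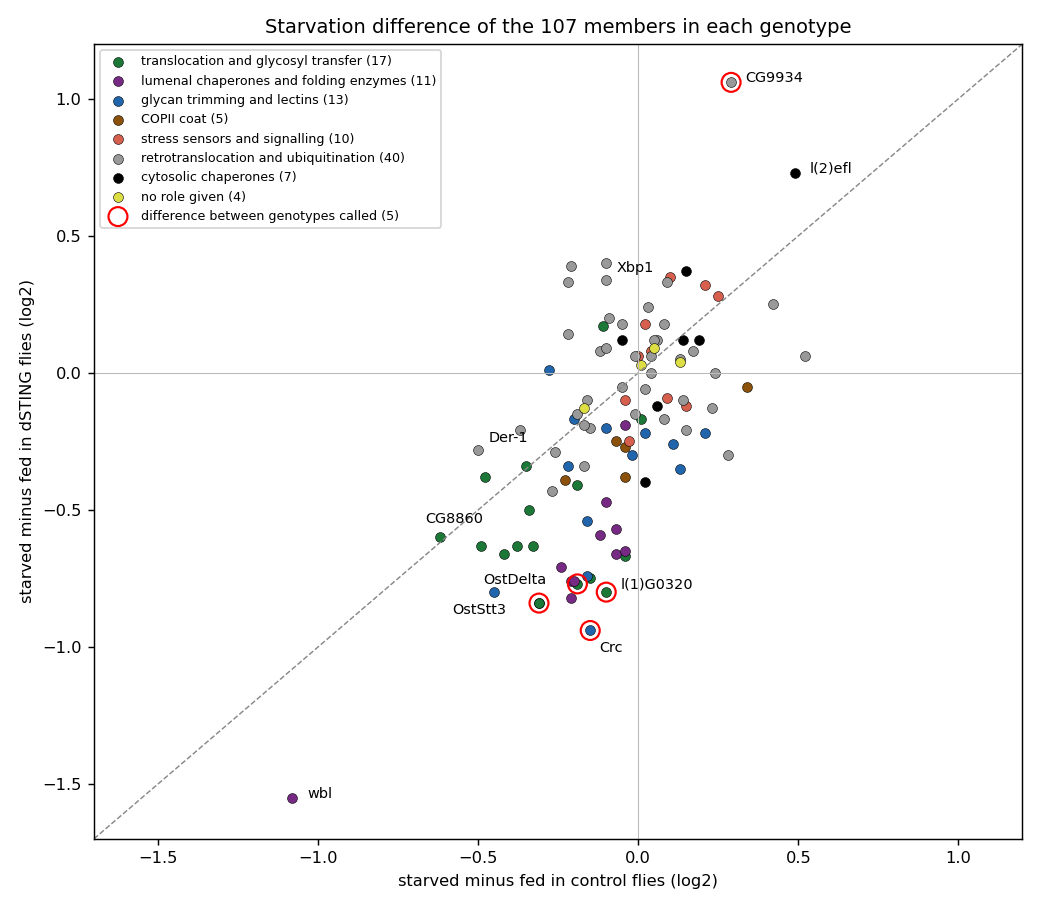
Starved minus fed difference (log2) of each of the 107 members in control flies (horizontal) and dSTINGΔ flies (vertical), coloured by role, with equal responses on the dashed line and red rings on the 5 members whose responses differed between genotypes at adjusted p under 0.05. The lumenal chaperones lie below the line, with control values from -0.24 to -0.04 except for wbl (-1.08), and CG9934 lies farthest above it (0.29 and 1.06).

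Of the 10 members called lower on starvation in control flies, 9 were also called lower in dSTINGΔ flies: wbl, CG8860, Sec61beta, Sec61gamma, SsRbeta, Tapdelta, Ost48, OstStt3 and CG33303. The tenth was Der-1. How often calls were shared between comparisons among all genes was not counted, so such overlaps are not read as particular to the members. Between the genotypes, Der-1 and l(2)efl were called higher and S1P, S2P and Ost48 lower in dSTINGΔ flies in both feeding states, and no member was called in opposite directions. For none of these 5 was the genotype difference called as unequal between the feeding states.

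**Figure D5:**
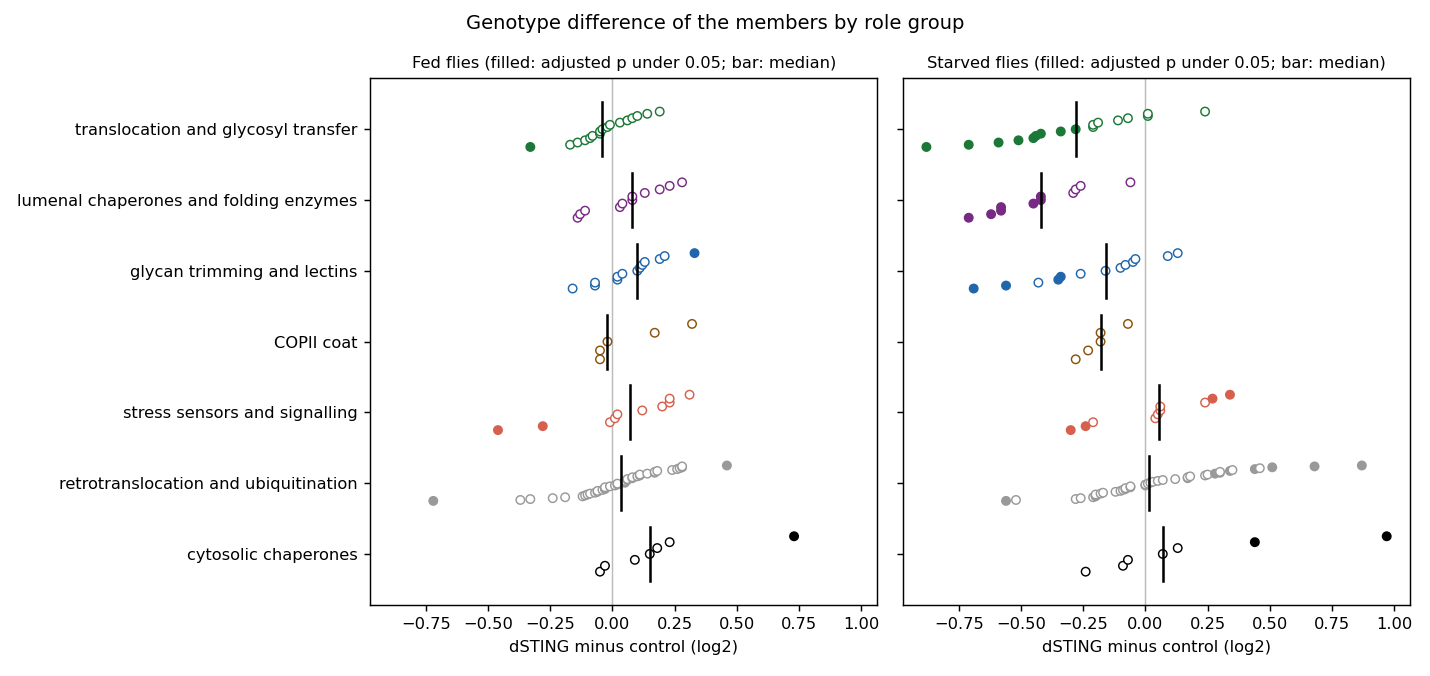
Genotype difference (dSTINGΔ minus control, log2) of every member with a role in fed flies (left) and starved flies (right), 1 point per member, filled where adjusted p was under 0.05, with a bar at the median of each role. In starved flies the median lies at -0.42 for lumenal chaperones and -0.28 for translocation and glycosyl transfer, and in fed flies at 0.08 and -0.04.

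Genes of the ER and early secretory pathway outside the KEGG term were read in the same way. Of 35 such genes, 19 were called lower and none higher on starvation in dSTINGΔ flies, 8 lower and 1 higher on starvation in control flies, and 9 lower and none higher in starved dSTINGΔ against starved control flies. In fed flies, 3 of the 35 (alphaCOP, Itp-r83A and Tango1) were called higher in dSTINGΔ and none lower. Of all genes, 9.52%, 5.55%, 10.9% and 6.26% were called lower in these comparisons, and 7.30%, 5.68%, 9.01% and 6.20% higher. Not counted in the 35 were 21 further genes with the roles above that lay outside the members. Of these 21, 4 were called lower and 4 higher on starvation in dSTINGΔ flies (differences from -1.45 to 0.64). In control flies 1 was called lower and 1 higher on starvation. Between genotypes 1 was called lower and 2 higher in starved flies, and none lower and 2 higher in fed flies. Signal peptidase subunits, which clip the signal sequence, fell on starvation in both genotypes for 3 of the 4 genes measured, such as Spase25 (-0.60 in control and -0.93 in dSTINGΔ flies, limma adjusted p = 0.0101 and 0.000160). Among the p24 cargo receptors, 3 of 6 fell in control and 4 of 6 in dSTINGΔ flies. Of 8 genes of the signal recognition particle and its receptor, 2 fell in dSTINGΔ flies. COPI coat genes, of the return route from the Golgi, were called lower for 4 of 8 in dSTINGΔ and for none in control flies. In starved flies the lumenal trophic factor Manf (-0.73, adjusted p = 0.000709), the retrieval receptor KdelR (-0.88, adjusted p = 0.00182) and CG11377, named Creld in RefSeq (-0.90, adjusted p = 3.89e-05), were lower in dSTINGΔ than in control. CG11377 was the 1 gene of the 35 whose response to starvation differed between genotypes (-0.82, adjusted p = 0.0125).

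The levels of tissue markers also differed between the groups, in ways that varied by tissue. Of all genes, 5.55% were called lower and 5.68% higher on starvation in control flies, and 9.52% and 7.30% in dSTINGΔ flies. Between genotypes the shares were 6.26% lower and 6.20% higher in fed flies, and 10.9% and 9.01% in starved flies. Of 12 seminal fluid genes of the accessory gland, 8 were called lower on starvation in control flies, 10 in dSTINGΔ flies and 5 in starved dSTINGΔ against starved control flies, and none in fed flies between genotypes. Their summed unlogged level was 9521 to 12401 on control fed arrays, 9202 to 12370 on dSTINGΔ fed arrays, 6179 to 7670 on control starved arrays and 5032 to 6530 on dSTINGΔ starved arrays. Of 9 fat body genes, 4 were called lower on starvation in each genotype (1 was called higher in control flies) and 3 in starved dSTINGΔ against starved control flies (1 in fed flies), with summed levels of 4426 to 4506, 4256 to 4917, 3421 to 3790 and 2511 to 2531 in the same order of groups. Cat and Rfabg, with means of 10.80 and 10.75 in fed control flies, weigh most in these sums, and Cat was the gene called higher. Lsp1alpha, Lsp1gamma, Fbp1 and Fbp2 of this list had group means from 1.91 to 3.67 and were not called. The lowest value of any gene was 1.11, so the room for a large fall in them was limited. Smaller differences could still be called there, as for the testis gene aly in fed flies (2.89 in control, 2.47 in dSTINGΔ). Hemocyte markers were lower in dSTINGΔ flies in both feeding states for 3 of 4 genes and on starvation in each genotype for 2 of 4, with sums of 256 to 357, 132 to 158, 194 to 209 and 77 to 93. Gut markers were called lower on starvation for 4 of 12 genes in control and 5 of 12 in dSTINGΔ flies, but between genotypes 4 were called higher and 1 lower in fed dSTINGΔ flies and 5 higher and 4 lower in starved dSTINGΔ flies, with sums of 8082 to 9746, 9329 to 10376, 6539 to 8726 and 7581 to 9132. The testis list (20 genes) summed to 8943 to 11091, 10045 to 11706, 9983 to 10818 and 11870 to 12629, and 3 of its genes were called higher on starvation in dSTINGΔ flies and none in control flies. Between genotypes 1 testis gene (5%) was called higher and 2 (10%) lower in fed dSTINGΔ flies. In starved dSTINGΔ flies 2 (10%) were called higher and 1 (5%) lower. Muscle markers (5 genes) were called lower on starvation for 1 in control and 3 in dSTINGΔ flies, and between genotypes 2 were lower in starved dSTINGΔ flies and 1 higher and 1 lower in fed dSTINGΔ flies. Neuronal markers (6 genes) were called higher in fed dSTINGΔ than fed control flies for 3 genes (median 0.52, all 6 above 0) and on starvation in control flies for 2, and none was called in the other comparisons. Their sums were 535 to 814 on control fed arrays, 867 to 1058 on dSTINGΔ fed arrays, 778 to 1062 on control starved arrays and 812 to 1059 on dSTINGΔ starved arrays. The part of these tissues in the differences of the members was not tested.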

How the data were processed

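Total RNA from whole adult male flies was hybridised to 12 Affymetrix Drosophila Gene 1.0 ST arrays. The authors deposited log2 values per gene, already background corrected, quantile normalized and summarized by RMA, for which the submitters' processing notes name affy 1.48.0 and R 3.2.0. RMA leaves values on a relative scale that depends on each gene's probes, and a genome build was not given in the sources used here. Sample groups came from the labels. The columns of the expression table name a group and an array number, so it gave the values and fits, while the sample records, which equal it within 0.005, carry the replicate numbers and gave the fits with an array left out or with a replicate block. Columns with the authors' own fold changes, test statistics, p-values, false discovery rates and clusters were not used.

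All 13554 genes were fitted with limma 3.58.1 in R 4.3.3 (lmFit and eBayes, 1 mean per group, 12 arrays, 8 residual and 4.5 prior degrees of freedom), with Benjamini-Hochberg adjustment over all genes and calls at adjusted p under 0.05. The fit was tested on simulated data first. The comparisons were genotype in each feeding state, starvation in each genotype, and the difference between the starvation differences. The number of arrays, 3 per group, limits the precision.

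Members were the genes with the KEGG term in the table's own annotation, all 107 of which matched a RefSeq gene by gene identifier, and were sorted into roles by known function. The members, the lists of other ER genes and the marker lists of accessory gland, testis, fat body, gut, muscle, neurons and hemocytes were chosen with earlier results of these data known. Genes were named by rule: the main stress sensors, chaperones and folding enzymes, the called members of largest difference without overlap in each comparison, those of smallest p for the difference of responses, and the members of highest and lowest level in each role. Some further members were named for their role after their values were seen. Alternatives were a fit on the 6 arrays compared, a replicate block, trended and robust empirical Bayes, array quality weights, centred arrays, only genes above the median level, the sample records' values, an added fold threshold of 1.4, and each array left out. Promoter and protein sequences were not analysed here.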

Additional observations from a re-analysis of the deposited data

Results flagged for a closer look

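The response to starvation of 5 members differed between the genotypes in the direct test with limma over all genes. Calreticulin (Crc) had a difference of responses of -0.79 (SE 0.11, adjusted p = 0.00693), made of -0.15 in control and -0.94 in dSTINGΔ flies. The oligosaccharyltransferase subunit OstDelta gave -0.58 (adjusted p = 0.0296) from -0.19 and -0.77, and OstStt3 gave -0.53 (adjusted p = 0.0332) from -0.31 and -0.84. The translocon-associated subunit l(1)G0320 gave -0.71 (adjusted p = 0.0408) from -0.10 and -0.80. The Ube4B-type enzyme CG9934 gave 0.77 (adjusted p = 0.0297) from 0.29 and 1.06. With an array left out, the highest adjusted p was 0.0278 for Crc, 0.0952 for OstDelta, 0.0970 for OstStt3, 0.124 for l(1)G0320 and 0.0952 for CG9934. The call was lost in 7 of 12 such fits for OstDelta and CG9934 and in 9 of 12 for OstStt3 and l(1)G0320.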

How the results depend on the processing

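The direction of none of the 82 calls of named members turned under any alternative, but most alternatives could not turn it. Group means stay the same with only the 6 arrays compared, trended and robust empirical Bayes, or the replicate block. They also stay the same with only genes above the median level or a fold threshold. The sample records hold nearly equal values. Centring shifted differences by at most 0.041, and the smallest in size of the 82 calls was -0.24 (S1P, between starved genotypes). Of these calls, 82 were kept with the values of the sample records, 81 with trended and robust empirical Bayes or array quality weights, 79 with centred arrays, 76 of 76 among genes above the median level, 61 of 77 with only the 6 arrays compared, and 49 with a fold over 1.4 required. Leaving out single arrays kept 820 of 984. Members were named in part because their arrays did not overlap in a comparison. Neither leaving out an array nor weighting the arrays can turn the direction of such a call. Counts moved more. In fed flies between genotypes, the 3 members called higher became 1 with 6 arrays, 5 with trended and robust empirical Bayes, 6 with array weights, 6 among genes above the median level and 1 with the fold threshold, and the 4 called lower became 2 with 6 arrays and 1 with the fold threshold. In starved flies, array weights gave 18 higher and 37 lower and the fold threshold 4 and 11, and centring moved the median to -0.05. For starvation in control flies, the 6 arrays alone gave 0 higher and 1 lower, array weights 11 and 26, genes above the median level 4 and 16, and the fold threshold 1 and 3. For starvation in dSTINGΔ flies, the 6 called higher became 10 with array weights and 2 with the fold threshold, and the median moved to -0.13 with centring and -0.20 among genes above the median level. For the difference of responses, array weights gave 4 higher and 28 lower, trended and robust empirical Bayes 7 lower and genes above the median level 13 lower, with medians of -0.10 after centring and -0.16 above the median level. The causes were not tested.

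With any one array left out, members called higher and lower ranged from 1 to 4 and 2 to 5 in fed flies between genotypes, 3 to 12 and 14 to 27 in starved flies, 0 to 8 and 2 to 16 for starvation in control flies, 3 to 7 and 31 to 39 for starvation in dSTINGΔ flies, and 0 to 4 and 1 to 15 for the difference of responses. The medians ranged from 0.03 to 0.07, -0.10 to -0.08, -0.08 to -0.05, -0.18 to -0.15 and -0.14 to -0.10. Same-numbered arrays did not pair steadily across groups (correlations of their deviations from -0.45 to 0.37, against -0.41 to 0.40 for other numbers, over all group pairs). They ran from -0.04 to 0.37 between fed and starved controls and from -0.45 to -0.07 between fed dSTINGΔ and starved control arrays. With 3 arrays a group, these values cannot settle whether arrays were paired, and the replicate block rests on a shared number only. With the replicate block, 69 of the 82 calls were kept, and members called higher became 7 in starved flies, 1 for starvation in control flies and 0 for the difference of responses, which had 1 called lower. The number of arrays per group limits what can be detected for small differences such as those of the stress sensors.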
